A study of Mus musculus with 2 samples.

Results

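A list of 37 genes that interferons induce was followed through single cells of adult mouse cochlear explants. The symbols were looked up in the gene tables of both deposited libraries, and 36 of 37 were found among 31053 genes. Mx2 did not match by symbol and was not analysed here. Each matched gene was measured as UMIs, the unique molecular tags that count captured transcripts, in barcodes with at least 500 UMIs, at least 300 detected genes and at most 20% mitochondrial UMIs. These cutoffs kept 1329 of 1403 barcodes of the cocktail library and 1584 of 1688 barcodes of the vehicle library.

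Both libraries came from whole cochlear explants of wild-type C57BL/6J mice aged 4 to 6 weeks. In the cocktail group the explants received valproic acid (VPA, 1.5 mM), lithium chloride (LiCl, 8 mM), forskolin (FSK, 20 µM) and the short interfering RNAs siFIR and siMxi1 (0.02 µM each) over 4 days. In the vehicle group they received sterile water containing 0.1% DMSO over the same 4 days. Both groups were then exposed to ad.Atoh1, an adenovirus vector carrying Atoh1, a transcription factor that drives hair cell formation, and stayed in culture for 2 weeks, so neither group is free of virus. The 5 cultures of each group were dissociated together and captured as 1 library, and the study labels the material as sensory epithelium. There was therefore 1 library per condition: intervals below are 95% intervals of counting error only, no difference has a replicate check, and no p-value is given.

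Interferons are secreted proteins that cells release after sensing viral nucleic acid or damage. Their receptors activate the Jak kinases, which set off a transcription factor complex containing Stat2 and Irf9 that binds the interferon-stimulated response element (ISRE) in front of target genes. The targets include sensors of foreign RNA, proteins that block viral entry, release or translation, and factors such as Irf7 that carry the response further. Interferon gamma acts mainly through another short element, the GAS. Virus vectors, double-stranded RNA and cell death are all known inducers, and the resident cells of connective tissue as well as immune cells can respond.

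The ISRE is the sequence feature that many members share, so the promoters of 6 members are shown. The first 4 hold the core searched for, GAAANNGAAA or its reverse complement TTTCNNTTTC, on either strand; the last 2 do not, and stand for the member with the highest and the member with the lowest ratio between the libraries. Each stretch is the 150 bases before the RefSeq transcription start (GRCm38.p6), 5′ to 3′ on the gene's strand, with the ISRE core in capitals. Isg15 lies at chr4:156200819-156200968 on the minus strand, with 3 overlapping matches; Ifit1 at chr19:34640739-34640888 on the plus strand, with 2; Rsad2 at chr12:26456453-26456602 on the minus strand, with 1; and Bst2 at chr8:71537473-71537622 on the minus strand, with 2 overlapping ones. Oasl1 lies at chr5:114923090-114923239 and Trim25 at chr11:88999253-88999402, both on the plus strand.
Isg15: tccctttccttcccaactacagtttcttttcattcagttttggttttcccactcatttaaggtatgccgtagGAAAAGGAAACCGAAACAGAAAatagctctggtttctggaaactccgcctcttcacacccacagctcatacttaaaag
Ifit1: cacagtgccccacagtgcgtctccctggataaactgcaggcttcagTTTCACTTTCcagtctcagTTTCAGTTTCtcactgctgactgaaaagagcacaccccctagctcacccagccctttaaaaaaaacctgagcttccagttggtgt
Rsad2: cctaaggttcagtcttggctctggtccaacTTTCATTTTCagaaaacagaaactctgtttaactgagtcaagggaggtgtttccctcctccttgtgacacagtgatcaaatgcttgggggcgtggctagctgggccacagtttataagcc
Bst2: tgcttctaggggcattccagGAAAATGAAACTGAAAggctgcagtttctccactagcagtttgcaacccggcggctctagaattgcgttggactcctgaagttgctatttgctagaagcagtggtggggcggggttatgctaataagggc
Oasl1: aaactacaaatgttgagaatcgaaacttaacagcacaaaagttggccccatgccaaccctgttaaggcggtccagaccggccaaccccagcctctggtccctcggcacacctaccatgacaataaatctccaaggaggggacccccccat
Trim25: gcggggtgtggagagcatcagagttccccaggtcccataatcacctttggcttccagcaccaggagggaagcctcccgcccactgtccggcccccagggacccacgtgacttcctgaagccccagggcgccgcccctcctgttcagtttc
RefSeq promoter windows, 250 bases before to 50 bases after the start, matched 27 of 36 members. The ISRE core was present in 15 of 27 members, or 55.6%, against 1079 of 27025 genes with a window, or 3.99%, and 3.44% of all 32851 windows. The GAS letters, TTCNNNGAA, read the same on both strands and were present in 7 of 27 members, or 25.9%, against 9.55% of genes. Members with and without an ISRE core overlapped in the size of their difference between libraries: the log2 ratio, cocktail over vehicle, ran from 0.20 to 1.02 with a median of 0.77 in the 15 with a core, and from 0.09 to 1.63 with a median of 0.63 in the 12 without. A match of letters is a description of the sequence, not a binding site.

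The kept cells held 19531019 UMIs in the cocktail library and 23017362 UMIs in the vehicle library, with medians per cell of 10391 UMIs in cocktail and 12267 UMIs in vehicle, so that 3 counts correspond to 0.154 UMIs per 1000000 (CPM) in cocktail and 0.130 CPM in vehicle. Sequence tags came from the 3′ end of transcripts, so CPM is not divided by transcript length and levels of different genes are not ranked here. The libraries shared 0 barcodes. Macrophage markers were higher in cocktail (190 CPM summed over 11 markers, against 57.9 CPM in vehicle, with none of the 11 at 0 in either library). Markers of lymphocytes were near the floor in both (5.27 CPM in cocktail, with 3 of 8 markers at 0, against 3.74 CPM in vehicle, with 4 of 8 at 0). The part that macrophages have in the differences below was not tested; 9 cells in cocktail and 6 in vehicle passed the macrophage gate.

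Summed over the 36 genes, the interferon-induced transcripts were higher in the cocktail library than in the vehicle library. They made up 97801 UMIs or 5007 CPM in cocktail (4976 to 5039), against 74512 UMIs or 3237 CPM in vehicle (3214 to 3261), a log2 ratio of 0.63 (0.62 to 0.64). All 36 genes had at least 20 UMIs over both libraries, and all 36 had a log2 ratio above 0. Of these, 24 of 36 were past 1.5-fold higher in cocktail and 0 were past 1.5-fold lower. Among all 17260 genes with at least 20 UMIs, 7.81% were past 1.5-fold higher and 10.6% past 1.5-fold lower, and 44.3% were above 0. With at least 50 UMIs it was 24 of 35 members higher and 0 lower, where 6.15% and 8.78% of all genes were. The median log2 ratio was 0.72 over the members and -0.03 over all genes. Ifitm3, Bst2 and Ifi27 held most of the UMIs; without these 3 genes the other 33 stood at 2218 CPM in cocktail and 1359 CPM in vehicle, a log2 ratio of 0.71 (0.69 to 0.73).

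The signalling factors differed among themselves. Irf7, which amplifies interferon production, stood at 70.2 CPM in cocktail and 32.8 CPM in vehicle, a log2 ratio of 1.10. Irf9 and Stat2, the DNA-binding and activating partners of the type I interferon complex, had smaller ratios of 0.36 and 0.49. Irf1, a transcription factor also induced by interferon gamma, was at 29.6 CPM in cocktail and 27.7 CPM in vehicle, a ratio of 0.10 whose interval, -0.07 to 0.26, includes 0. The 4 genes together were at 200.3 CPM in cocktail and 136.4 CPM in vehicle.

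Isg15 encodes a ubiquitin-like protein that is joined to other proteins in infected cells, and Usp18 removes it and dampens receptor signalling. Isg15 (ENSMUSG00000035692, chr4:156199424-156200818) had 8603 UMIs or 440.5 CPM in cocktail and 5647 UMIs or 245.3 CPM in vehicle, a log2 ratio of 0.84 (0.80 to 0.89). It was found in 42.5% of cocktail cells and 37.8% of vehicle cells. Usp18 had nearly the same ratio, 0.84, at 43.2 CPM in cocktail and 24.2 CPM in vehicle. Both the modifier and its protease were thus past 1.5-fold higher.

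The Ifit genes, whose proteins bind viral RNA and block its translation, lie side by side on chromosome 19 in the order Ifit2, Ifit3, Ifit3b, Ifit1, with 7111, 19238 and 27469 bases between neighbours (GENCODE M21). All 4 were past 1.5-fold higher in cocktail. Ifit3 was at 143.5 CPM in cocktail and 84.0 CPM in vehicle, with a log2 ratio of 0.77. Ifit1 was at 131.6 CPM in cocktail and 84.7 CPM in vehicle, with a ratio of 0.64. Ifit3 and Ifit3b are nearly identical copies, so how reads were divided between them is uncertain; their ratios were the same to 2 decimals.

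The oligoadenylate synthetase family makes the messenger that activates RNase L, and its member Oasl1 is known in mice to restrain Irf7 translation. Oasl1 (ENSMUSG00000041827, chr5:114923240-114937915) had the highest ratio of all members. It had 339 UMIs or 17.4 CPM in cocktail and 129 UMIs or 5.60 CPM in vehicle, a log2 ratio of 1.63 (1.33 to 1.94), and was found in 6.396% of cocktail cells and 2.90% of vehicle cells. Oasl2, 11005 bases away, had a ratio of 0.65, and Oas1a one of 0.84. Oas2 (32 UMIs in cocktail and 26 in vehicle) and Oas3 (15 UMIs in cocktail and 13 in vehicle) were too scarce for their ratios to be separated from 0.

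Rsad2 and Cmpk2 are neighbours on chromosome 12, 12751 bases apart on opposite strands; Rsad2 encodes viperin, which makes a chain-terminating nucleotide from the product of the Cmpk2 kinase. Rsad2 was at 63.9 CPM in cocktail and 31.5 CPM in vehicle, a log2 ratio of 1.02. Cmpk2 was at 16.9 CPM in cocktail and 8.65 CPM in vehicle, a ratio of 0.97. The pair thus had the same ratio within counting error.

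The membrane restriction factors carried the largest share of the UMIs. Ifitm3, which blocks fusion of incoming viruses in endosomes, had 28130 UMIs or 1440 CPM in cocktail and 21648 UMIs or 940.5 CPM in vehicle, a log2 ratio of 0.61 (0.59 to 0.64). It made up 28.8% of all member UMIs in cocktail and 29.1% in vehicle. Bst2, or tetherin, which holds budding virions at the cell surface, was at 839.1 CPM in cocktail and 498.2 CPM in vehicle, a ratio of 0.75 (0.72 to 0.79). Bst2 was detected in 75.0% of cocktail cells and 69.9% of vehicle cells, so it was present in most cells of both libraries.

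Among the GTPases, Mx1, which blocks influenza-like viruses but is known to be defective in C57BL/6 mice, had 131 UMIs or 6.71 CPM in cocktail and 52 UMIs or 2.26 CPM in vehicle, a log2 ratio of 1.57 (1.10 to 2.06). A single cocktail cell held 31 of these UMIs, and the ratio was 1.42 with the top cell of either library left out. Gbp2 and Gbp3, guanylate-binding proteins that attack the membranes around intracellular microbes, had ratios of 0.91 and 0.80.

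The RNA sensors and kinases ranged widely. Zbp1, a sensor of Z-form nucleic acid, and Ifih1, or MDA5, a sensor of long double-stranded RNA, had log2 ratios of 0.95 and 0.78. Ddx58, or RIG-I, the sensor of RNA ends, was at 32.1 CPM in cocktail and 28.0 CPM in vehicle, a ratio of 0.20. Trim25, the ubiquitin ligase that acts on RIG-I, was at 36.4 CPM in cocktail and 34.1 CPM in vehicle, a ratio of 0.09 whose interval, -0.05 to 0.24, includes 0. Eif2ak2, or PKR, which stops translation on binding double-stranded RNA, was at 92.6 CPM in cocktail and 69.2 CPM in vehicle, a ratio of 0.42. Ddx58 and Trim25 were thus among the 4 members with the smallest differences. Dhx58, the remaining gene of this group, was at 12.2 CPM in cocktail and 7.56 CPM in vehicle, a ratio of 0.69 (0.41 to 0.99).

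The remaining members were uneven as well. Ifi27, a small mitochondrial protein, was at 510.4 CPM in cocktail and 439.4 CPM in vehicle, a log2 ratio of 0.22 (0.18 to 0.26). Its paralogue Ifi27l2a, 1927 bases away, was at 222.5 CPM in cocktail and 105.3 CPM in vehicle, a ratio of 1.08, so neighbouring paralogues differed in ratio. Xaf1, an antagonist of the apoptosis inhibitor XIAP, was at 143.1 CPM in cocktail and 106.9 CPM in vehicle, a ratio of 0.42. Ifi35 was at 146.0 CPM in cocktail and 95.3 CPM in vehicle, a ratio of 0.62, but 770 of its 2851 cocktail UMIs lay in 1 cell, and the ratio was 0.30 with the top cell of either library left out. Ifi35 and Samd9l, whose ratio was 0.59 with and 0.58 without its top cells, were the 2 of the 24 members that were then no longer past 1.5-fold.

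Cells were then assigned to types by marker lists that contain no member, each cell going to the list whose share of its UMIs was furthest above the mean, if at least 2-fold and with at least 2 markers. Of the kept cells, 500 in cocktail and 526 in vehicle passed no gate. A name here is a marker gate, not an annotation by the study, and cells could pass more than 1 gate (69 of 189 cells of the fibroblast gate and 82 of 251 of the interdental or inner sulcus gate did). No doublets were removed. Among the 5 gates with at least 50 cells in each library, the 2 connective tissue gates had the highest summed levels in both libraries. The fibroblast gate stood at 11035 CPM in cocktail and 6359 CPM in vehicle, and the mesenchymal border gate, marked by Otor, Emcn and Coch, at 8343 CPM in cocktail and 5709 CPM in vehicle. Low levels were found in the hair cell and neuron gates. The hair cell gate, with 19 cocktail and 53 vehicle cells, stood at 953.2 CPM in cocktail and 1454 CPM in vehicle, and the neuron gate, with 5 cocktail and 18 vehicle cells, at 1701 CPM in cocktail and 927.1 CPM in vehicle.

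**Figure D1:**
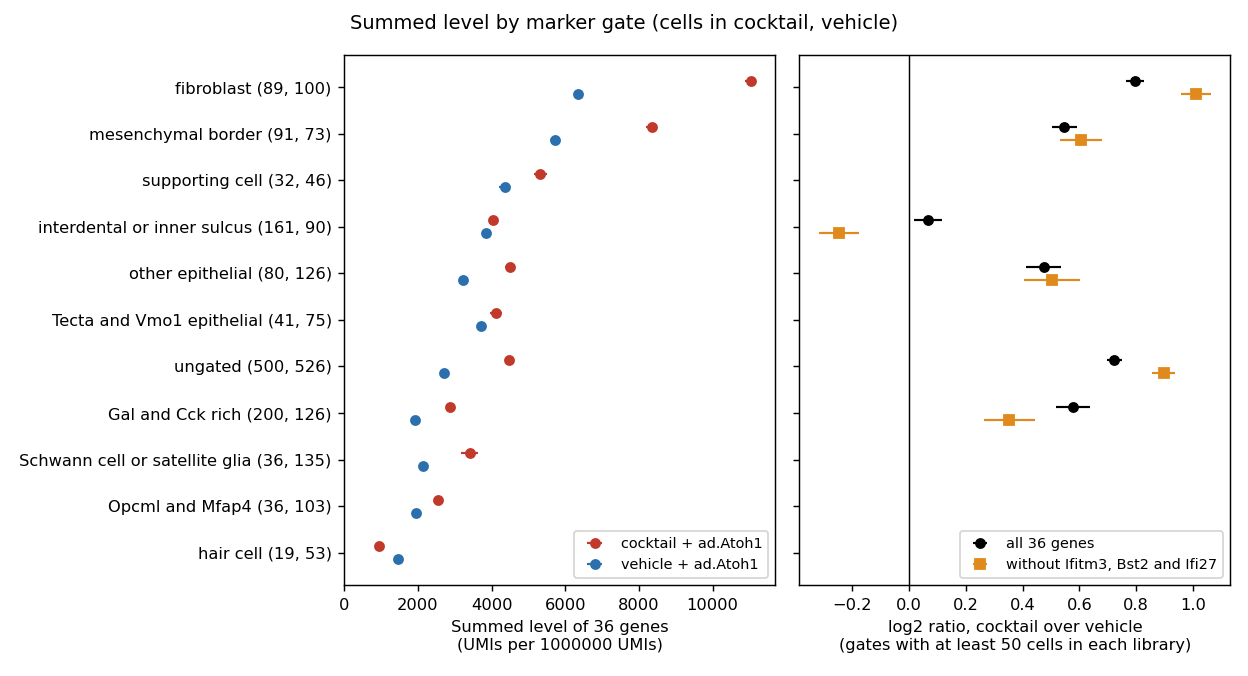
The left panel gives the summed level of the 36 genes by marker gate in UMIs per 1000000, cocktail in red and vehicle in blue, with cell numbers after the gate name; the right panel gives the log2 ratio, cocktail over vehicle, for gates with at least 50 cells in each library, for all 36 genes in black and without Ifitm3, Bst2 and Ifi27 in orange, and bars are 95% counting intervals. Among the 5 gates compared the fibroblast gate is highest in level and ratio (0.80), while the interdental or inner sulcus gate lies near 0 for all genes (0.07) and below 0 without the 3 genes (-0.25).

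The fibroblast gate had both the highest level and the largest ratio among the gates compared, 0.80 on the log2 scale (0.76 to 0.83). It held 89 cocktail cells and 100 vehicle cells, with 9.09% of the UMIs of the cocktail library but 20.0% of its member UMIs, and 8.62% of the UMIs of the vehicle library with 16.9% of its member UMIs. Of 35 members with at least 20 UMIs in the gate, 27 were past 1.5-fold higher in cocktail and 0 past 1.5-fold lower, where 7.04% and 11.8% of all genes tested in the gate were. Fibroblast markers summed over the whole library were at 1013 CPM in cocktail and 1251 CPM in vehicle, and the part of fibroblast content in the difference over all cells was not tested. Isg15 was at 1416 CPM in cocktail fibroblasts and 709.1 CPM in vehicle fibroblasts, a log2 ratio of 1.0. Ifit3 was at 322.8 CPM in cocktail and 101.3 CPM in vehicle, a ratio of 1.67, and was found in 73.0% of cocktail and 38.0% of vehicle cells of the gate. Irf7 was at 180.3 CPM in cocktail and 55.4 CPM in vehicle, a ratio of 1.70. Cmpk2 had the largest ratio of the gate, 2.3, at 59.7 CPM in cocktail and 12.1 CPM in vehicle. The exception was Ifi27, at 283.4 CPM in cocktail and 377.0 CPM in vehicle, a ratio of -0.41, the only one of the 35 below 0.

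In the mesenchymal border gate, with 91 cocktail and 73 vehicle cells, the summed ratio was 0.55 (0.50 to 0.59). Of 34 members tested there, 18 were past 1.5-fold higher in cocktail and 1 past 1.5-fold lower, against 10.8% and 11.8% of all genes tested in the gate. Isg15 was at 831.5 CPM in cocktail and 462.4 CPM in vehicle, a log2 ratio of 0.85, and Ifit3 and Irf7 had ratios of 1.74 and 1.70, close to those in the fibroblast gate. The 1 member past 1.5-fold lower was Ifi27l2a, at 139.2 CPM in cocktail and 275 CPM in vehicle, although over all cells it was among the members with the highest ratios. The 2 connective tissue gates thus had similar ratios of Irf7 and Ifit3 and differed in Ifi27l2a. The Irf7 ratio was not particular to them, as that of the Gal and Cck rich gate below was close to it. Cells of the mesenchymal border gate also had a median of 1560 CPM for the fibroblast list, beside 1924 CPM for their own list.

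In the Gal and Cck rich gate, defined by transcripts of the neuropeptides galanin and cholecystokinin, the summed level was 2863 CPM over 200 cocktail cells and 1918 CPM over 126 vehicle cells, a log2 ratio of 0.58 (0.52 to 0.64). Median depth in this gate was 4110 UMIs per cell in cocktail and 9622 in vehicle. The difference came mainly from a few genes: 6 of 29 members were past 1.5-fold higher in cocktail and 2 past 1.5-fold lower, against 7.98% and 9.83% of all genes tested in the gate. Ifitm3 was at 304.8 CPM in cocktail and 89.3 CPM in vehicle, a ratio of 1.77. For comparison, Ifitm3 in the hair cell gate, which had little of it, was at 46.7 CPM in cocktail and 107 CPM in vehicle. Ifi27l2a was at 77.1 CPM in cocktail and 9.86 CPM in vehicle, a ratio of 2.97 (2.25 to 3.78), Irf7 had a ratio of 1.69, and Bst2 was at 710.8 CPM in cocktail and 392.5 CPM in vehicle. Isg15, by contrast, was at 88.7 CPM in cocktail and 73.6 CPM in vehicle, a ratio of 0.27, and the median over the 29 members was 0.27. Without Ifitm3, Bst2 and Ifi27 the summed ratio of the gate was 0.35 (0.27 to 0.44).

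The interdental or inner sulcus gate, marked by Ceacam16, Otoa, Otogl and Clu, was the one compared gate in which the summed level barely differed. It stood at 4031 CPM over 161 cocktail cells and 3852 CPM over 90 vehicle cells, a log2 ratio of 0.07 (0.02 to 0.12). Of 31 members tested, 0 were past 1.5-fold higher in cocktail and 8 past 1.5-fold lower, where 6.34% and 10.3% of all genes tested in the gate were, and 24 of 31 were below 0. Ifi44 was at 6.61 CPM in cocktail and 25.02 CPM in vehicle, and Rsad2 at 8.26 CPM in cocktail and 23.5 CPM in vehicle, log2 ratios of -1.92 and -1.51. Ifit1 was at 117.3 CPM in cocktail and 235.4 CPM in vehicle, a ratio of -1.0, and Isg15 at 102.1 CPM in cocktail and 161.1 CPM in vehicle, a ratio of -0.66. The other 4 were Irf1, Cmpk2, Ddx58 and Ifit3b, with ratios of -1.13, -1.01, -0.79 and -0.59; the interval of Cmpk2, -2.13 to 0.10, includes 0. Ifitm3 and Bst2 ran the other way, with ratios of 0.50 and 0.39, and Ifitm3 was at 781.3 CPM in cocktail and 552.1 CPM in vehicle. Without Ifitm3, Bst2 and Ifi27 the gate stood at 1758 CPM in cocktail and 2088 CPM in vehicle, a ratio of -0.25 (-0.32 to -0.18). The highest cell held 3.57% of those UMIs in cocktail and 6.97% in vehicle. In clusters made without interferon genes, the 3 clusters that took the interdental name gave ratios for these 33 genes of -0.05, -0.39 and 0.46, so the sign was not shared by all 3.

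**Figure D2:**
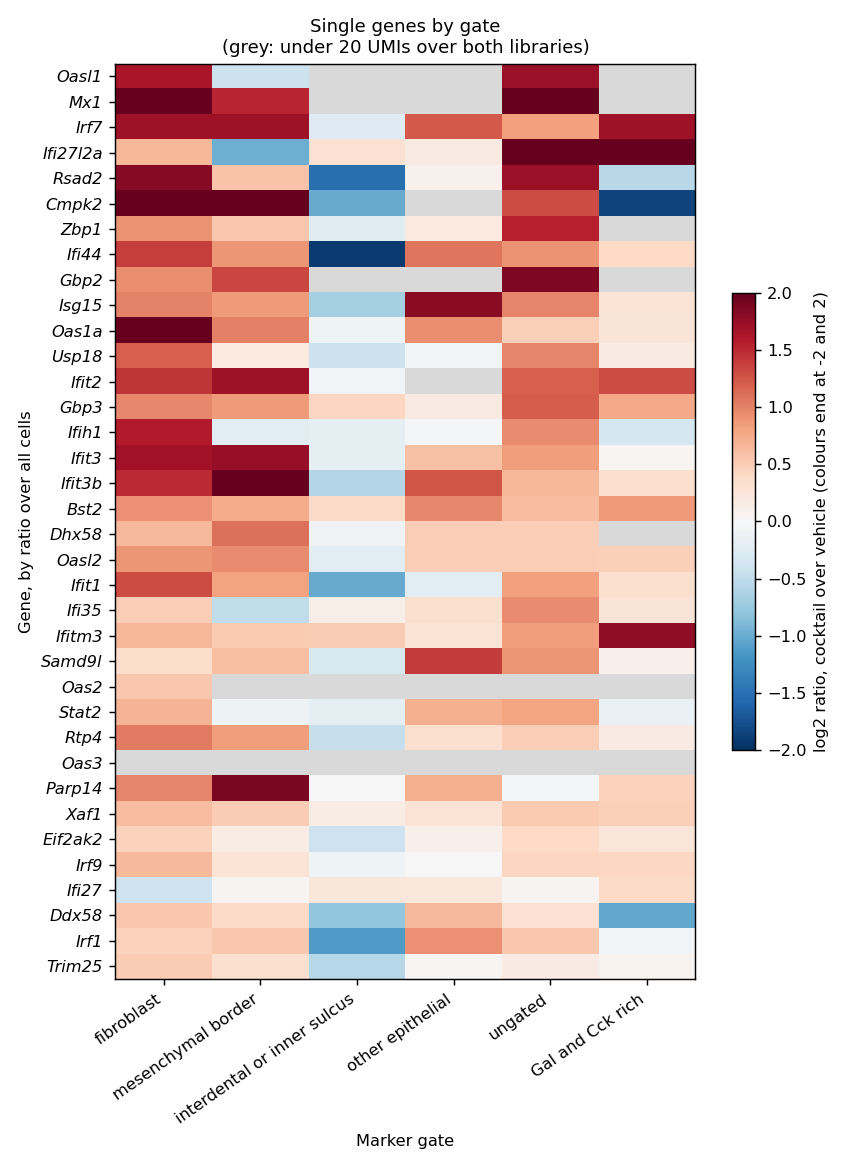
Each cell of the map is the log2 ratio, cocktail over vehicle, of 1 gene (rows, ordered by the ratio over all cells) in 1 gate (columns); red is higher in cocktail, blue lower, colours end at -2 and 2, and grey marks fewer than 20 UMIs over both libraries. The fibroblast column is red except for Ifi27, and the interdental or inner sulcus column is blue for 24 of 31 genes.

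The other epithelial gate, cells with Epcam, Cdh1 and keratin transcripts that passed no finer epithelial list, stood at 4492 CPM over 80 cocktail cells and 3235 CPM over 126 vehicle cells, a log2 ratio of 0.47 (0.41 to 0.54). Of 29 members tested, 11 were past 1.5-fold higher in cocktail and 0 lower, against 13.2% and 13.9% of all genes tested. Isg15 had the largest ratio there, 1.8, at 308.2 CPM in cocktail and 88.3 CPM in vehicle, so the gene that was lower in cocktail in the interdental gate was higher in this one. The cluster holding the most cells of the gate was cluster 1 in cocktail (22 cells) and cluster 6 in vehicle (37 cells), so different clusters led the gate in each library. In the ungated cells, 22 of 34 members were past 1.5-fold higher in cocktail and 0 lower, against 10.3% and 9.5% of all genes tested, and Ifi27l2a was at 166.2 CPM in cocktail and 30.9 CPM in vehicle. Over the 5 gates compared, 6 of 36 members were above 0 in each gate in which a ratio could be formed, with no minimum of 20 UMIs. These were Bst2, Ifitm3, Gbp3 and Xaf1 in all 5, Oas2 in 2 and Oas3 in 1. A ratio was formed with UMIs in both libraries, or with more than 3 in 1 library and 0 in the other.

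Gates with fewer than 50 cells in a library are given by level alone. The macrophage gate, with 9 cocktail and 6 vehicle cells, stood at 8088 CPM in cocktail and 5726 CPM in vehicle, but 1 cell held 67.8% of its member UMIs in cocktail and 1 held 54.5% in vehicle. The endothelial gate, with 14 cocktail and 29 vehicle cells, stood at 7466 CPM in cocktail (7108 to 7837) and 7310 CPM in vehicle (7069 to 7558), intervals that overlap. Of its cocktail cells, 10 were in cluster 5, named mesenchymal border. Of its vehicle cells, 23 were in cluster 18, named endothelial, which held 0 cocktail cells. The supporting cell gate stood at 5321 CPM in cocktail and 4350 CPM in vehicle, the Schwann cell or satellite glia gate at 3404 CPM in cocktail and 2148 CPM in vehicle, and the gate marked by Opcml and Mfap4 at 2552 CPM in cocktail and 1941 CPM in vehicle. The Tecta and Vmo1 epithelial gate stood at 4118 CPM in cocktail and 3707 CPM in vehicle. The osteoblast gate stood at 11825 CPM over 7 cocktail cells and 2670 CPM over 63 vehicle cells, and the pericyte gate at 2573 CPM over 6 cocktail cells and 7194 CPM over 12 vehicle cells. In the osteoblast gate 6 of the cocktail cells were in cluster 4, named fibroblast. Of its vehicle cells, 34 were in cluster 16, named osteoblast, which held 0 cocktail cells. Different clusters thus led the endothelial and osteoblast gates in each library, and 63 of 70 osteoblast gate cells passed another gate too. The hair cell and pericyte gates were thus the 2 of these with a lower level in cocktail. In the pericyte gate 10 vehicle cells were in cluster 12, while no cluster held more than 2 of the cocktail cells. A single cell held 50.4% of that gate's member UMIs in cocktail. Without Ifitm3, Bst2 and Ifi27 the macrophage gate (3773 CPM in cocktail and 4390 CPM in vehicle) and the endothelial gate (2651 and 2876 CPM) were also lower in cocktail, with overlapping intervals.

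The next question was whether the level came from many cells or from a few. Cells were thinned at random to 1000 UMIs each, which left out 172 shallower cells in cocktail and 94 in vehicle. At that depth at least 3 members were detected in 45.9% of the cells in cocktail (43.0 to 48.8), against 31.0% in vehicle (28.7 to 33.4). At least 1 was detected in 83.8% of the cells in cocktail and 76.3% in vehicle. The hair cell gate, a gate with a low level in both libraries, gave 10.5% in cocktail and 5.77% in vehicle for at least 3 members. Without thinning the shares with at least 3 members were 80.7% in cocktail and 79.5% in vehicle, so the difference in share was seen only where cells were compared at equal depth. Free RNA in the droplets was not subtracted.

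The whole distribution of cells was shifted rather than its upper end alone. The median level per cell was 34.6 member UMIs per 10000 in cocktail and 20.2 in vehicle, a ratio of 1.71. At the lower quartile the levels were 15.5 in cocktail and 9.02 in vehicle, a ratio of 1.72, and at the 99th percentile 206.0 in cocktail and 164.8 in vehicle, a ratio of 1.25. Cells in which members made up at least 1% of UMIs were 131 of the cocktail cells (9.86%) and 72 of the vehicle cells (4.55%). The highest 1% of cells held 12.1% of member UMIs in cocktail and 9.43% in vehicle at full depth, but 6.41% in cocktail and 7.05% in vehicle after thinning to 1000 UMIs, so the order of the libraries depended on depth.

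**Figure D3:**
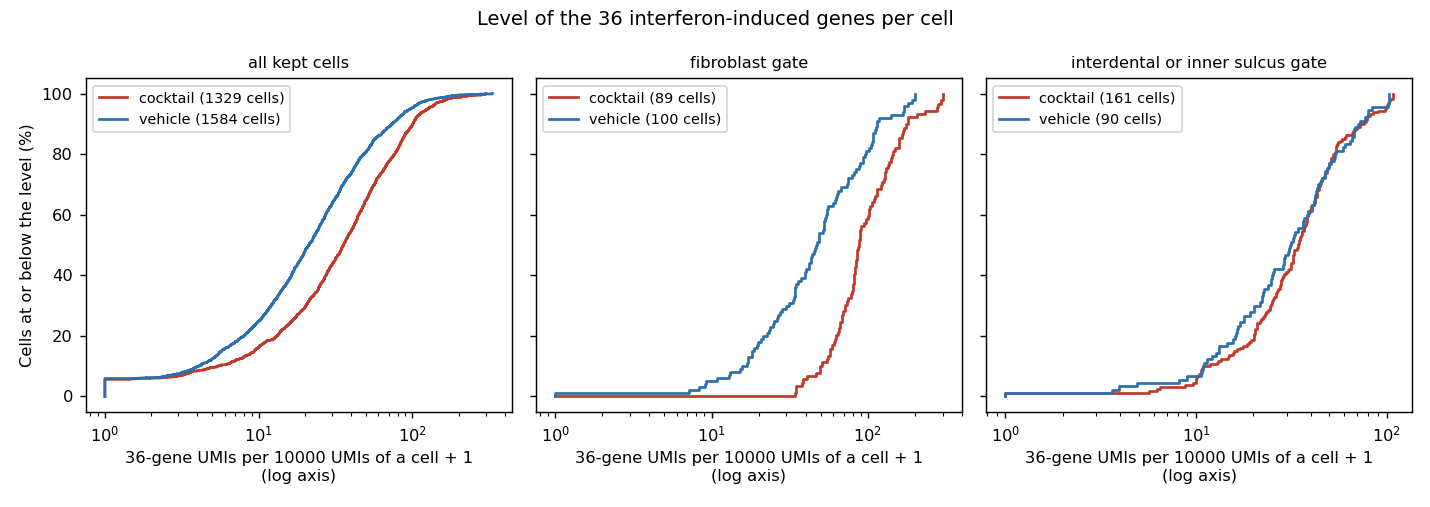
Each line gives the percent of cells (y axis) at or below a level of the 36 genes per 10000 UMIs of the cell (x axis, log scale after adding 1), cocktail in red and vehicle in blue. The cocktail line lies to the right of the vehicle line along most of its length over all cells and in the fibroblast gate, where the medians are 85.5 in cocktail and 45.1 in vehicle, while in the interdental or inner sulcus gate the lines run close together, with medians of 33.4 in cocktail and 29.98 in vehicle.

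The fibroblast gate showed the same over its own cells. Its median level was 85.5 per 10000 in cocktail and 45.1 in vehicle, and without Ifitm3, Bst2 and Ifi27 it was 38.3 in cocktail and 12.7 in vehicle. Thinned to 1000 UMIs, 89.0% of cocktail fibroblasts and 51.0% of vehicle fibroblasts held at least 3 members. In the interdental or inner sulcus gate these shares were 51.9% in cocktail and 45.6% in vehicle, and in the Gal and Cck rich gate 39.0% in cocktail and 21.6% in vehicle. The highest 10% of cells by level were 133 cells in cocktail, of which 36 were in the fibroblast gate, and 158 cells in vehicle, of which 30 were in it. Of all cells of the fibroblast gate, 40.4% in cocktail and 30% in vehicle were thus among the highest of their library, while no hair cell gate cell was in either.

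Members tended to be found in the same cells. In cells thinned to 5000 UMIs, a median of 25.9% of a member's UMIs in cocktail and 29.9% in vehicle lay in the highest 10% of cells ranked by the other members, over 31 members each. The share ran from 6.93% for Ifi27 to 56.9% for Cmpk2 in cocktail, and from 10.9% for Ifi27 to 52.6% for Isg15 in vehicle. An even spread over cells of equal depth would give about 10%. The share was not computed for genes outside the list, and the part that cell types have in it was not tested. Ifi27 was thus spread over cells almost without regard to the rest, in either library, while Cmpk2 and Isg15 were gathered in the cells with the highest levels.

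Atoh1 UMIs were used as a sign of how much vector a cell carried, with the limit that vector and endogenous transcripts count together and that a cell without an Atoh1 UMI may still carry virus. Atoh1 stood at 74.0 CPM in cocktail and 47.8 CPM in vehicle, and the share of cells with at least 1 UMI was 21.6% in cocktail and 20.1% in vehicle. Cells with more Atoh1 UMIs had lower, not higher, summed levels in both libraries. With 0, 1 to 2, and 3 or more Atoh1 UMIs the level was 5809, 4253 and 2897 CPM in cocktail, over 1042, 158 and 129 cells. In vehicle it was 3550, 2592 and 2171 CPM over 1265, 208 and 111 cells. The log2 ratio of 3 or more over 0 was -1.0 in cocktail and -0.71 in vehicle. Deeper cells have more chances to show an Atoh1 UMI, and the median depth ran 7024, 21253 and 27219 UMIs in cocktail and 10268, 18407 and 22413 UMIs in vehicle. With cells thinned to 5000 UMIs, and Atoh1 counted after thinning, the ratio was -0.99 in cocktail and -0.32 in vehicle.

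**Figure D4:**
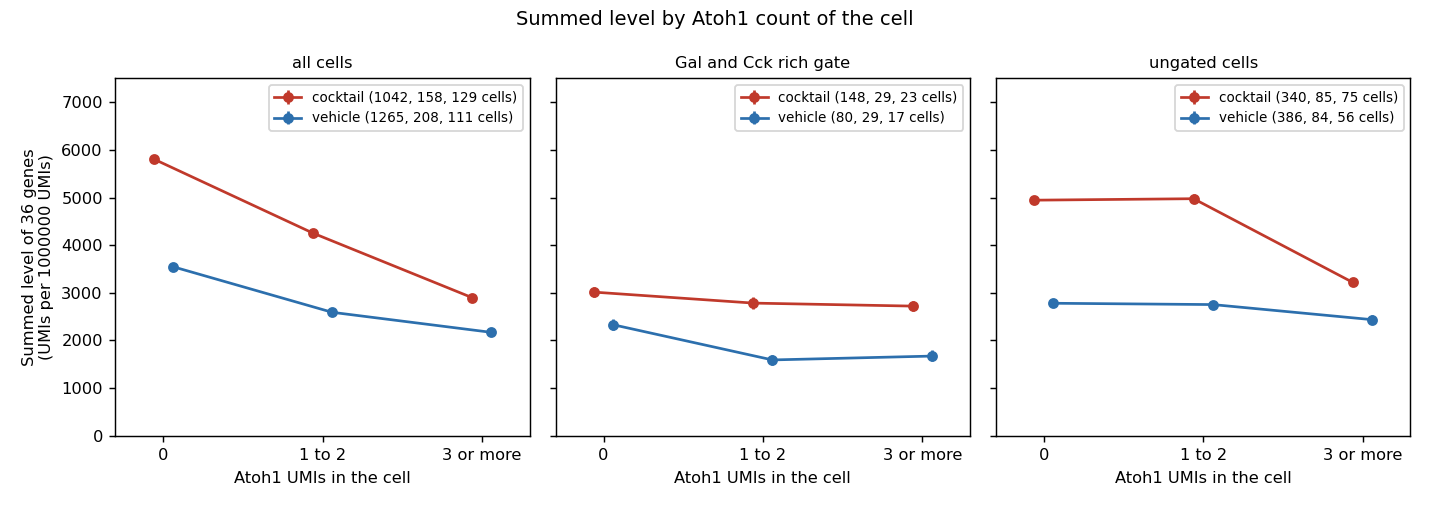
The summed level of the 36 genes in UMIs per 1000000 is plotted by the number of Atoh1 UMIs in the cell (0, 1 to 2, 3 or more) for all cells, the Gal and Cck rich gate and ungated cells, cocktail in red and vehicle in blue, with 95% counting intervals as bars. Cells are at full depth, without thinning. Over all cells the level is lower with more Atoh1 in both libraries (5809 to 2897 in cocktail, 3550 to 2171 in vehicle), and within the Gal and Cck rich gate it is 2722 with 3 or more and 3015 with 0 in cocktail, and 1673 with 3 or more and 2331 with 0 in vehicle.

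Which cells carried Atoh1 differed between gates and moved with this relation. Cells with an Atoh1 UMI were 3.37% of the fibroblast gate in cocktail and 6.00% in vehicle, the gate with the highest member level of the 5 compared, but 26.0% of the Gal and Cck rich gate in cocktail and 36.5% in vehicle, a gate with a low one. Within the Gal and Cck rich gate the ratio of 3 or more over 0, at full depth, was -0.15 in cocktail and -0.48 in vehicle, and outside it -1.04 in cocktail and -0.65 in vehicle. Depth differed: in cocktail the median in the gate was 28103 UMIs with and 2221.5 without an Atoh1 UMI. Thinned to 5000 UMIs, the gate's ratio of 1 or more over 0 was 0.06 (-0.12 to 0.24) in cocktail and -0.86 (-1.13 to -0.59) in vehicle. At full depth these were -0.13 in cocktail and -0.52 in vehicle. Over the 12 pairs of a gate and a library with at least 10 cells on each side at full depth, the level with an Atoh1 UMI was lower in 7 and higher in 5. The counting interval lay below 0 in 6 of the 12 and above 0 in 3. The ungated cells of each library count among these pairs. Thinned to 5000 UMIs, 5 pairs remained, with 3 lower and 2 higher, and the interval lay below 0 in 2 and above 0 in 1. In the Opcml and Mfap4 gate the level was higher with Atoh1 in both libraries, at 2850 CPM with and 2018 CPM without in cocktail, and 2065 CPM with and 1781 CPM without in vehicle. In cluster 9, named for the same markers, it was higher in cocktail (3283 CPM with and 2095 CPM without). There it was lower in vehicle (1547 CPM with and 1869 CPM without). Thinned to 5000 UMIs, the ratios of cluster 9 were 0.01 (-0.26 to 0.28) in cocktail and 0.05 (-0.17 to 0.27) in vehicle. Those of the gate were 0.58 in cocktail and 0.72 in vehicle. So a single direction across cell types was not seen, and how far the cell types account for the relation over all cells was not tested.

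The relation was uneven among the genes. Comparing cells with 3 or more Atoh1 UMIs with those with 0, 32 of 35 members were lower in cocktail, where 44.5% of all genes were, and 28 of 35 in vehicle, where 46.9% were. Ifitm3 was at 424.2 CPM with 3 or more and 1924 CPM with 0 in cocktail, and at 325.4 CPM with 3 or more and 1136 CPM with 0 in vehicle, log2 ratios of -2.18 in cocktail and -1.8 in vehicle. Isg15 was at 184.5 CPM with 3 or more and 530.5 CPM with 0 in cocktail, a ratio of -1.52. In vehicle it was at 243.7 CPM with 3 or more and 254.1 CPM with 0, a ratio of -0.06 whose interval, -0.19 to 0.06, includes 0. Of the Isg15 UMIs in cells with 3 or more, 1 cell held 222 of 609 in vehicle and 1 held 121 of 637 in cocktail. Whether the libraries differ in this gene without those cells was not tested. Eif2ak2 and Trim25 had ratios above 0 in both libraries, of which only that of Trim25 in cocktail, 0.46 (0.17 to 0.74), had an interval above 0. Ifi35 was at 364.9 CPM with 3 or more and 96.7 CPM with 0 in cocktail, a ratio of 1.92, and the cell with 770 of its UMIs was among those with 3 or more. Over all cells pooled, the difference between libraries was present at each Atoh1 count: the log2 ratio, cocktail over vehicle, was 0.71 in cells with 0, 0.71 with 1 to 2 and 0.42 with 3 or more Atoh1 UMIs. Within gates it was uneven. With 0 Atoh1 UMIs it was 0.80 in the fibroblast, 0.58 in the mesenchymal border and 0.58 in the other epithelial gate. It was 0.37 in the Gal and Cck rich and 0.04 (-0.01 to 0.09) in the interdental or inner sulcus gate. Without Ifitm3, Bst2 and Ifi27 these last were -0.07 (-0.20 to 0.06) and -0.27 (-0.34 to -0.20).

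The rest of the pathway was read from 6 lists of other genes. The ligands were almost absent: 18 interferon genes had 17 UMIs in cocktail and 5 UMIs in vehicle, so none could be compared. Of 15 genes for receptors and signalling, 2 were past 1.5-fold higher in cocktail and 0 lower, near the 7.81% and 10.6% of all genes, with a median log2 ratio of 0.07. Those 2 were Irf5 and Irf8, factors known from immune cells. The type I receptor chains had ratios of -0.43 for Ifnar1 and 0.22 for Ifnar2, and 215 of the 922 vehicle UMIs of Ifnar1 lay in 1 cell, without which and its cocktail counterpart the ratio was -0.07. Jak1 stood at -0.01 and Stat3 at 0.00, beside the median of -0.03 over all genes.

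The lists of nucleic acid sensing and of negative regulators do not hold the members Zbp1, Ifih1 and Usp18 described above. Of 12 tested genes of nucleic acid sensing, 0 were past 1.5-fold in either direction, a count too small to set apart from the 7.81% higher and 10.6% lower over all genes; the adaptor of DNA sensing, Tmem173 or STING, had a log2 ratio of -0.10, the kinase Tbk1 one of -0.08 and the endosomal RNA sensor Tlr3 one of 0.31. Of 9 negative regulators tested, 0 were past 1.5-fold; Socs3, an inhibitor of Jak kinases, had a ratio of -0.19 and Nlrc5, also a regulator of antigen presentation genes, 0.55. Of 55 other interferon-induced genes tested, 22 were past 1.5-fold higher in cocktail, against 7.81% of all genes, and 0 lower, against 10.6%, with a median of 0.45, and 53 of 55 were above 0. B2m, the light chain of class I antigen-presenting molecules, was at 823 CPM in cocktail and 731.3 CPM in vehicle, a ratio of 0.17, and Ly6e had a ratio of 0.42.

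The chemokines of this list differed most. Cxcl10, which attracts T cells, was at 269.3 CPM in cocktail and 39.2 CPM in vehicle, a log2 ratio of 2.78. In cocktail 747 of its 5259 UMIs lay in 1 cell, and the ratio was 2.90 with the top cell of either library left out. Cxcl10 was at 1196 CPM in cocktail fibroblasts and 113.4 CPM in vehicle fibroblasts. In the mesenchymal border gate it was at 645.9 CPM in cocktail and 143.5 CPM in vehicle, and in the osteoblast gate at 1808 CPM over 7 cocktail cells and 2.82 CPM over 63 vehicle cells. The osteoblast gate drew mainly on cluster 4, named fibroblast, in cocktail and on cluster 16, named osteoblast, in vehicle. Cxcl10 was low in both libraries in the interdental or inner sulcus gate (3.72 CPM in cocktail and 5.47 CPM in vehicle) and the other epithelial gate (5.83 CPM in cocktail and 6.64 CPM in vehicle). In the Gal and Cck rich gate it was lower in cocktail, at 0.80 CPM (2 UMIs) against 26.1 CPM in vehicle (45 UMIs). The Schwann cell or satellite glia gate also ran that way, at 3.92 CPM in cocktail (1 UMI) and 34.3 CPM in vehicle (38 UMIs). Cxcl9 had a ratio of 3.08 from 72 cocktail and 10 vehicle UMIs, of which 1 cocktail cell held 55, and 1.32 without the highest cells. Ccl5, named after its values were seen, was at 192.1 CPM in cocktail and 28.8 CPM in vehicle. Among 14 tested genes of the NF-kB response, 5 were past 1.5-fold higher and 1 lower, against 7.81% and 10.6% of all genes; Ccl2, a monocyte attractant, was at 275.2 CPM in cocktail and 92.7 CPM in vehicle, a ratio of 1.57 (1.36 with the top cell of either library left out), while the neutrophil attractant Cxcl2 had a ratio of -0.92.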

How the data were processed

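The authors deposited 2 matrices of UMI counts, 1 per library, written by Cell Ranger 5.0.0 per the file headers. STAR, Seurat 3.2.2 and the genome build GRCm38 (mm10) are listed in the submitters' processing notes. The annotation release used for counting is not given in the sources used here. The members and lists were chosen with earlier results of these data known. Barcodes with at least 500 UMIs, 300 genes and at most 20% mitochondrial UMIs were kept; no doublet caller was run. Levels are summed counts per 1000000 UMIs of the same cells, with exact Poisson intervals, exact binomial intervals for shares and exact conditional intervals for ratios (95%), all covering counting error only. A gene was compared with at least 20 UMIs over both libraries, with a prior count of 0.5 for the 1.5-fold calls, and a gate with at least 50 cells in each library.

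Marker gates used a list's share of a cell's UMIs over the mean of all cells (at least 2-fold, 100 CPM added, at least 2 markers); Leiden clusters (20, resolution 1) were built from 2000 variable genes, 30 components and 15 neighbours without the interferon lists. Near the gate cut, between 1.8-fold and 2.2-fold, lay 6 cells of the fibroblast gate, 7 of the interdental or inner sulcus gate, 31 of the other epithelial gate and 103 ungated cells. Emcn is in both the endothelial and the mesenchymal border lists, and 95 of 164 cells of the mesenchymal border gate passed another gate too. Members described with values were the 10 with the most UMIs, the 4 highest and 4 lowest ratios among those with at least 50 UMIs, and any member past 1.5-fold lower; the other named members and all genes named within gates were added after their values were seen. Gene positions and overlaps come from GENCODE M21 on GRCm38; Irf9 overlaps Rnf31 on the same strand, and Rtp4 and Parp14 each overlap a non-coding gene, so part of their counts is uncertain. Simulated counts for 17260 genes with log2 changes of 1 and 2 in either direction gave median estimates of -2.01, -0.99, 1.01 and 1.99, and intervals covered the true value in 95.6% of unchanged genes. The simulated library totals were Poisson counts, as the intervals assume, so this checks the calculation only. It does not cover counts gathered in single cells or differing mixes of cells. Python 3.11.15, NumPy 2.4.6, SciPy 1.17.1, pandas 2.3.3, scanpy 1.11.5, leidenalg 0.10.2 and matplotlib 3.10.9 were used. Alternatives were other cutoffs, scalings, gates, thinning depths and leaving out each gene's highest cell.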

Additional observations from a re-analysis of the deposited data

Results flagged for a closer look

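The 33 members other than Ifitm3, Bst2 and Ifi27 had a log2 ratio, cocktail over vehicle, of -0.25 in the interdental or inner sulcus gate, while in the other 4 compared gates the same sum was above 0, up to 1.01 in the fibroblast gate. The opposite direction is what singled it out; with 1 library per condition the difference between gates was not tested. It rests on 161 cocktail and 90 vehicle cells, with a median of 11.04 of these UMIs per 10000 in cocktail and 14.5 in vehicle.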

How the results depend on the processing

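No paired analysis was possible because each condition has 1 library. The count of members past 1.5-fold higher lay between 16 and 24 under the 11 alternatives tried, with the mean of per-cell CPM giving the fewest. The summed log2 ratio of 0.63 was 0.61 without each gene's highest cell, 0.66 with scaling by the median ratio over genes (a shift of all genes by -0.03), 0.58 as the mean of per-cell CPM, 0.55 with gates weighted alike, 0.71 in cells without an Atoh1 UMI and, chosen after seeing the data, 0.71 without Ifitm3, Bst2 and Ifi27 and 0.58 without the fibroblast gate. With clusters in place of gates the ratio was 0.97 in fibroblasts, 0.47 in mesenchymal border cells and 0.41 in other epithelial cells; with the stricter 4-fold gate it was 0.42, 0.56 and, reversed, -0.050 in the mesenchymal border, other epithelial and interdental or inner sulcus gates. The mean of per-cell CPM gave 0.72 in the Gal and Cck rich gate, 0.85 in fibroblasts and 0.47 in mesenchymal border cells. Without Ifitm3, Bst2 and Ifi27 the ratios were 0.35, 1.01 and 0.61 in the Gal and Cck rich, fibroblast and mesenchymal border gates and, reversed, -0.25 in the interdental or inner sulcus gate. The share of cells with at least 3 members was 88.4% in cocktail and 79.7% in vehicle at 5000 UMIs, and 80.7% in cocktail and 79.5% in vehicle without thinning. At full depth the Atoh1 relation was -0.15 in cocktail and -0.48 in vehicle within the Gal and Cck rich gate, -1.04 in cocktail and -0.65 in vehicle outside it, and -0.69 in cocktail and -0.55 in vehicle for 1 or more UMIs against 0. Over all cells it was -0.32 in vehicle after thinning to 5000 UMIs. The cause of these changes was not tested. Counts under 3 UMIs, 0.154 CPM in cocktail and 0.130 CPM in vehicle, limit what can be seen of the ligands.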

Other observations

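Ifnb1, the interferon that many cell types release on sensing virus, was found as 12 UMIs in 2 cocktail cells and 0 UMIs in vehicle, which allows up to 0.130 CPM there. One ungated cocktail cell, in the larger of the 2 clusters that took the fibroblast name, held 11 of the 12. That cell had 28115 UMIs, of which 687 came from members, or 244 per 10000, which placed it 8th of the cocktail library. It held 144 Isg15, 106 Rsad2, 29 Oasl1, 83 Cxcl10 and 14 Ccl5 UMIs and 0 Atoh1 UMIs. A single cell carries no test.

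Clusters were built without interferon genes, and 2 took the fibroblast name. In the larger one, the only one with at least 50 cells in each library, the members other than Ifitm3, Bst2 and Ifi27 were at 4873 CPM over 98 cocktail cells and 1954 CPM over 115 vehicle cells, a log2 ratio of 1.32. The smaller one held 75 cocktail and 12 vehicle cells and was not compared. Of the 2 clusters named for Opcml and Mfap4, the larger had a ratio of 1.16 over 55 cocktail and 105 vehicle cells for the same 33 genes, and the other held 2 cocktail and 44 vehicle cells. In the gate of that name, with 36 cocktail and 103 vehicle cells, these genes were at 1316 CPM in cocktail and 877.7 CPM in vehicle.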
